A study of Mus musculus with 25 samples.

Results

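The 8 genes of major histocompatibility complex (MHC) class I antigen presentation described here were followed through all 9 conditions of an RNA-seq study of mouse macrophages: H2-K1, H2-D1, H2-T23, B2m, Tap1, Tap2, Tapbp and Nlrc5. They were chosen by symbol, 8 of the 24411 gene symbols in the count tables, and all 8 passed the filter on low counts. The study comprised 25 libraries. Bone marrow derived macrophages (BMDMs) came from C57BL/6 mice and were differentiated with 25 ng/ml M-CSF for 4 days. Their 7 groups of 3 samples were an unstimulated control cultured for 4 h, cells given IFN-γ (100 U/ml) plus LPS (100 ng/ml) and labelled 1, 4, 12 or 24 h (called IFN-LPS here), and cells given IL-4 or IL-13 (10 ng/ml each) for 12 h. The macrophage line RAW264.7, which derives from BALB/c mice infected with Abelson leukaemia virus, was a control cultured for 4 h or was given LPS (100 ng/ml, no IFN-γ) for 4 h, with 2 samples each. The hours are those of the labels. How long cells met IFN-γ before LPS is not given in the sources used here, and the 1, 12 and 24 h groups had no control of their own time.

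MHC class I molecules show fragments of a cell's own proteins, viral ones included, to CD8 T cells. Each is a heavy chain, encoded in BMDMs by the classical genes H2-K1 and H2-D1 or the non-classical H2-T23 (Qa-1), held by the invariant light chain β2-microglobulin (B2m). Peptides made by the proteasome are pumped into the endoplasmic reticulum by the transporter subunits Tap1 and Tap2, tapasin (Tapbp) bridges transporter and heavy chain during loading, and Nlrc5 is the transactivator of class I genes. In macrophages IFN-γ is a known inducer of these genes, in part through Irf1.

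On chromosome 17 of mm10 lie 6 members. In the GENCODE annotation of that build H2-K1 spans chr17:33996017-34000347 on the minus strand, H2-D1 chr17:35262730-35267499 on the plus strand and H2-T23 chr17:36029773-36032855 on the minus strand. Tapbp (chr17:33915899-33929292), Tap1 (chr17:34187553-34197225) and Tap2 (chr17:34203527-34216321) lie on the plus strand of the same chromosome. B2m is at chr2:122147686-122153083 and Nlrc5 at chr8:94434356-94527272, both on the plus strand. Counts covered the annotated exons of each gene, untranslated parts included.

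The promoters of 5 members are printed, and whether their motifs bear on the changes in RNA was not tested. H2-K1 and H2-D1 were picked as close relatives that moved by different amounts, and Tap1 because it moved most. B2m and H2-T23 were picked because they hold an exact match to the interferon-type repeat searched for. Each is 250 bases before and 50 bases from the RefSeq start in GRCm38.p6, read 5′ to 3′ on the gene's strand. Capitals mark the interferon-type repeat (GAAA, any 2 bases, GAAA), the NF-kB decamer, CCAAT and TGACG, on either strand. H2-K1 is chr17:34000298-34000597 (minus), H2-D1 chr17:35262844-35263143 (plus), B2m chr2:122147437-122147736 (plus), H2-T23 chr17:36032652-36032951 (minus) and Tap1 chr17:34187306-34187605 (plus).
H2-K1: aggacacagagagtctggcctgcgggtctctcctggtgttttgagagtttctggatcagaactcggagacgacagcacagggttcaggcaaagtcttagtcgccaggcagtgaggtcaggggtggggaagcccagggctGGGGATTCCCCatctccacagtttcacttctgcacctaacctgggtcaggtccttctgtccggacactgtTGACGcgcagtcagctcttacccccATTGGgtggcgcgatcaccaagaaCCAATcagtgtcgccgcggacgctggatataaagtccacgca
H2-D1: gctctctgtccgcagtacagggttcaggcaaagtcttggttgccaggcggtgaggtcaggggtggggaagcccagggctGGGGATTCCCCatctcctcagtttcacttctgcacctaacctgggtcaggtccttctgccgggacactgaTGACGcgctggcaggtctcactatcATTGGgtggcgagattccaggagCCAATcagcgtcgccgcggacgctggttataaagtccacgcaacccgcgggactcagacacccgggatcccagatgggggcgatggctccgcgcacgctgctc
B2m: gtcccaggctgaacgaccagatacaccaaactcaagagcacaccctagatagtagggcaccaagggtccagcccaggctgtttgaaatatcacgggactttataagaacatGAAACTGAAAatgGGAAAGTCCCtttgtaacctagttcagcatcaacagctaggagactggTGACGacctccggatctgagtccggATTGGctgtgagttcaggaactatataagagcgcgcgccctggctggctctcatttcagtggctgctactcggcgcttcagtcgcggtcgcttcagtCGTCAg
H2-T23: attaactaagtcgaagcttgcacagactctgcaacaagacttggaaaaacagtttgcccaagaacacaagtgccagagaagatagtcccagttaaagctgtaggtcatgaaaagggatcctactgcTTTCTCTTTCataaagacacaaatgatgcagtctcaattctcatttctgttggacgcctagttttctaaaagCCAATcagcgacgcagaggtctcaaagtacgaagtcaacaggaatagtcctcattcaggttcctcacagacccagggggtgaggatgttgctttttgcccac
Tap1: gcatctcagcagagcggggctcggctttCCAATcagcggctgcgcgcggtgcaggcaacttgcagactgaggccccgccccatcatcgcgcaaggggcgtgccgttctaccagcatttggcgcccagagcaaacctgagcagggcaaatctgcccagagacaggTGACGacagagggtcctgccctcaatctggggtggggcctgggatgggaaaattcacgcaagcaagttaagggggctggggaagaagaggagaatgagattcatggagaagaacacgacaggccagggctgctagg
Over 239 aligned bases, H2-K1 and H2-D1 had 211 identical (88.3%), and both held the NF-kB decamer, CCAAT and TGACG. The interferon-type repeat was found in B2m, at -139 to -130 before the start, and in H2-T23, at -124 to -115, against 3.44% of all 32851 mouse promoters of this length. The NF-kB decamer was found in H2-K1, H2-D1 and B2m, against 8.46% of all promoters. CCAAT stood in the promoters of all 6 members with an entry (Tapbp is not printed; Tap2 and Nlrc5 were not matched), against 37.4% of all, and TGACG in 4 of them, against 20.8%. In Tapbp and H2-T23 no TGACG letters stood in this window. Motif matches were counted as exact letters only. Interferon-type sites that vary from this repeat were not looked for, so a promoter without a match, such as H2-K1 or H2-D1, may still hold one.

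Sense counts per library were 2378639 to 3357300 on genes, of which 20.1% to 39.8% fell on the ribosomal RNA gene Rn45s, so that 1502618 to 2532496 counts remained. Levels are CPM, counts of a gene scaled to a common total of that remainder with TMM, whose factors ran from 0.717 in IFN-LPS at 4 h to 1.32. Macrophage markers were detected in all libraries (8 of 8 genes in BMDMs, 7 of 8 in RAW264.7, where Mertk was at 0). Of 7 T cell markers, Cd3d, Cd3e, Cd3g and Cd8a were at 0, and 3 were detected in BMDM control. The 7 summed to 10.7 to 13.4 CPM in BMDM control, 11.5 to 20.4 at 4 h of IFN-LPS and 2.53 to 2.98 at 24 h. Summed dendritic cell markers were 0.535 to 1.63 CPM in control and 48.5 to 54.0 at 1 h of IFN-LPS, nearly all of it Clec9a, with Flt3 at 0. Neutrophil markers summed to 8.69 to 16.6 CPM in control and 26.4 to 42.6 at 1 and 4 h. Fibroblast markers (Col1a1, Col1a2, Col3a1, Dcn and Pdgfra) summed to 52.4 to 109 CPM over the BMDM samples and were all at 0 in RAW264.7. The part of these in the results was not tested. Antisense counts were 0.0386% to 0.122% of Rn45s in BMDM control and at 1 to 12 h of IFN-LPS, and 0.00603% to 0.0283% in the other groups. No label names a batch, and a technical difference cannot be told apart from the 24 h, IL-4, IL-13 and RAW264.7 conditions. Comparisons of those conditions with BMDM control or with earlier IFN-LPS times carry this limit. In bulk RNA, fewer cells of a type and less RNA per cell cannot be told apart.

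In unstimulated BMDMs all members were already transcribed. Per kilobase of annotated exon, B2m was highest at 1111 CPM/kb, followed by H2-K1 at 372, H2-D1 at 246 and H2-T23 at 100.4. Tapbp followed at 45.8, and the remaining members were low, with Tap1 at 7.72, Nlrc5 at 4.71 and Tap2 at 3.45 CPM/kb. Lengths are of GENCODE protein-coding exons, which may differ from the exons counted. Summed over the 8 genes, control held 2517 ± 34.9 CPM (SD, n = 3) and 24 h of IFN-LPS 17974 ± 832 CPM (n = 3), which were a mean of 0.276% and 1.69% of the sense counts without Rn45s.

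**Figure D1:**
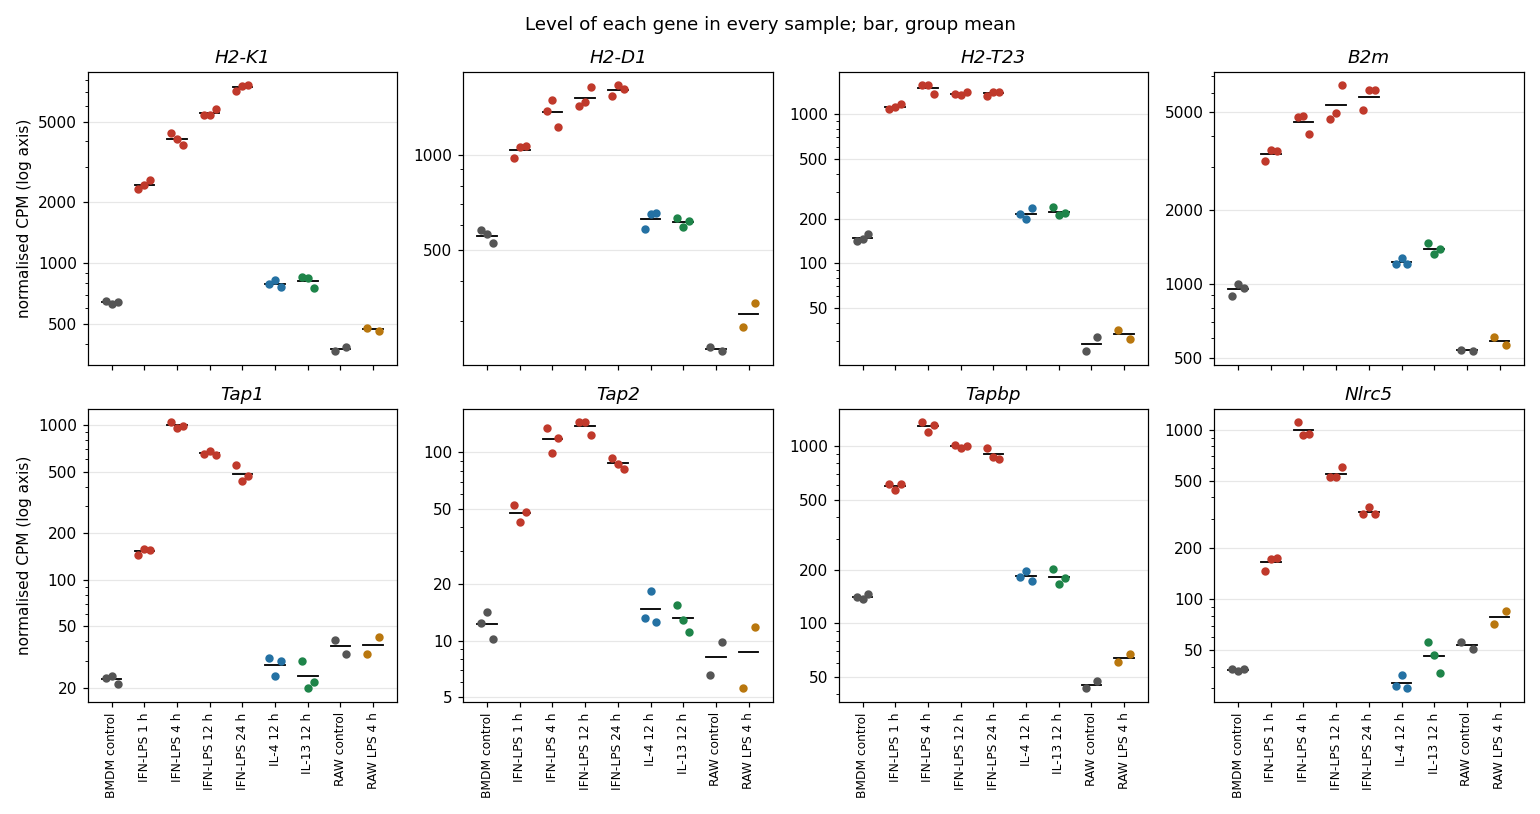
Level of each member in each sample, in CPM on a log axis, with 1 panel for each gene and the 9 conditions along the axis (points, samples; bars, group means). All IFN-LPS samples lie above the control samples for every member, and the RAW264.7 samples change little with LPS.

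The first question was how IFN-γ and LPS changed each part of the pathway in BMDMs. All 8 members were higher than control at 1, 4, 12 and 24 h (edgeR quasi-likelihood test, adjusted p at most 0.01), where 14.6%, 25.3%, 23.2% and 22.3% of the 10612 genes tested were called higher. Their median log2 fold change was 2.02, 3.22, 3.16 and 2.97, against -0.02, -0.09, -0.02 and -0.01 over all genes. In none did any IFN-LPS sample overlap the control samples, a separation found upward in 24.1%, 29.9%, 29.6% and 29.3% of genes. At the study's cutoff (log2 fold change of 1.5), 7 members passed at 1, 4 and 12 h, where 4.83%, 10.9% and 8.42% of genes did, and 8 at 24 h, where 7.43% did. H2-D1 was the exception before 24 h, and its 1.53 at 24 h was close to the cutoff: it was 1.30 with library totals and 1.49 without control replicate 3, either of which left 7 members. With library totals in place of TMM the median of all genes at 4 h moved to -0.66, and all 8 members were still called higher at each time, by 0.72 to 4.86 at 4 h.

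Of the classical heavy chains, H2-K1 rose more than H2-D1 at each time. Its control samples were 654, 633 and 644 CPM, and the samples were 2331, 2437 and 2581 at 1 h, 4413, 4122 and 3847 at 4 h, 5420.5, 5390 and 5809 at 12 h, and 7103, 7500.4 and 7584 at 24 h. Neighbouring times did not overlap. At 24 h H2-K1 was 11.5-fold control (log2 fold change 3.52, SE 0.09, adjusted p = 1.84e-48). H2-D1, its partner locus, had 578, 561 and 525 CPM in control, 976, 1059 and 1067 at 1 h, 1372, 1493 and 1224 at 4 h, 1425, 1467 and 1637 at 12 h, and 1535, 1659 and 1619 at 24 h. Its 12 h samples overlapped those of 4 h and those of 24 h, and no time overlapped control. At 24 h the log2 fold change of H2-D1 was 1.53 (SE 0.09, adjusted p = 2.2e-26), the smallest of the 8 members. H2-T23, whose product presents leader peptides of other class I chains to NK receptors, was early. Control samples held 141, 145 and 158 CPM and the 1 h samples 1087, 1114 and 1171. By 1 h it was 2.93 higher on the log2 scale (SE 0.09, adjusted p = 1.14e-40), and between 4 and 24 h it stayed at 1328 to 1571 CPM.

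The light chain B2m had 897 to 1003 CPM in control, between 3176 and 3515 at 1 h, between 4066 and 4824 at 4 h, between 4695 and 6441 at 12 h and between 5105 and 6137 at 24 h (n = 3 each). The 12 h samples overlapped those of 4 h and those of 24 h, which did not overlap each other. The log2 fold change at 24 h was 2.60 (SE 0.09, adjusted p = 1.73e-37).

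Tap1 and Nlrc5, low in control, had the largest fold changes of the members at 4 and 12 h. Tap1 samples were 23.1, 23.9 and 21.4 CPM in control, 144, 159 and 156 at 1 h, 1044, 960 and 979 at 4 h, 653, 679 and 638 at 12 h, and 553, 436 and 469 at 24 h. The 4 h samples were the highest and overlapped no other time. At 4 h Tap1 was 5.44 higher on the log2 scale (SE 0.13, adjusted p = 1.34e-49), a 43.6-fold ratio of means. Nlrc5 held 38.7, 37.5 and 38.5 CPM in control, 148, 174 and 174 at 1 h, 1114, 932 and 943 at 4 h, 527, 529 and 604 at 12 h, and 319, 350 and 319 at 24 h. The transactivator thus also had its highest samples at 4 h, with a log2 fold change of 4.70 (SE 0.12, adjusted p = 2.34e-47). Tapbp ran from 137 to 147 CPM in control to 1202 to 1367 at 4 h (log2 fold change 3.19, adjusted p = 3.41e-43) and was at 848 to 977 at 24 h. Tap2, the partner subunit of Tap1, rose from 10.2 to 14.1 CPM in control to 124 to 145 at 12 h (log2 fold change 3.49, SE 0.17, adjusted p = 1.62e-29). Its control samples rested on 19 to 26 counts each, so its fold changes were the least precise of the members.

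**Figure D2:**
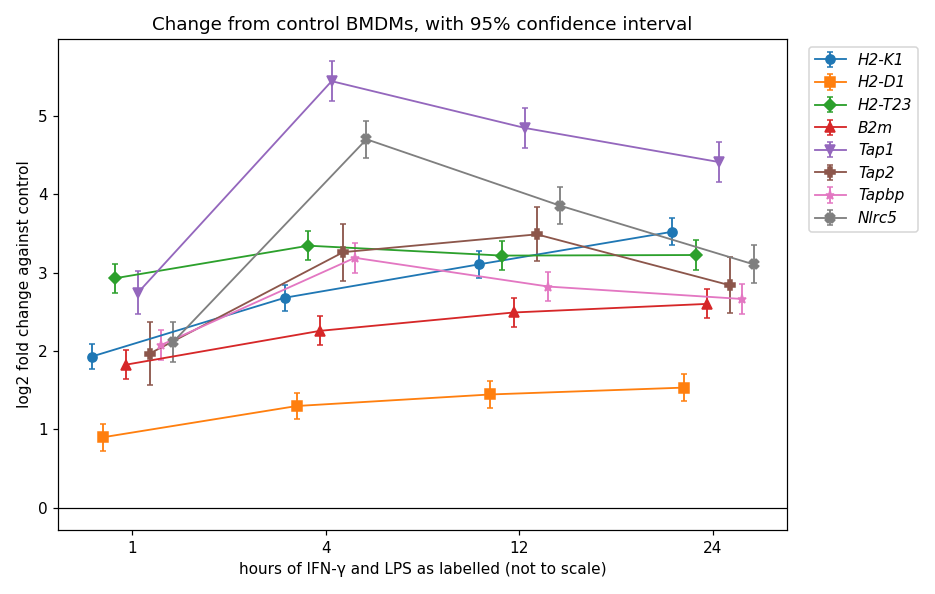
Log2 fold change of each member against BMDM control in edgeR (points, with 95% interval; lines join 1 member) at the labelled hours of IFN-LPS, spaced evenly and not to scale. Tap1, Nlrc5 and Tapbp are highest at 4 h and lower at 12 and 24 h, while H2-K1 and B2m are highest at 24 h.

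Successive times were then compared to see which members went on rising. From 1 to 4 h all 8 were higher, by 0.40 to 2.70 on the log2 scale, when 19.1% of genes were called higher. Here the scaling mattered: with library totals 5 of 8 were called, and H2-D1 (0.04), B2m (0.07) and H2-T23 (0.05) were not. From 4 to 12 h, H2-K1 was higher by 0.42 (adjusted p = 3.43e-06), when 15.2% of genes were called higher. Tap1, Tapbp and Nlrc5 were lower, by -0.60 (adjusted p = 5.41e-08), -0.37 (adjusted p = 0.000158) and -0.85 (adjusted p = 1.72e-12), when 18.2% of genes were called lower. H2-D1 (0.15), B2m (0.23), Tap2 (0.23) and H2-T23 (-0.13, above 0 with library totals) did not pass. With library totals H2-D1, B2m and Tap2 joined H2-K1, giving 4 higher, and Tapbp lost its call (adjusted p = 0.163). Without the first 12 h sample 2 were higher, B2m being the addition. From 12 to 24 h, H2-K1 was higher by a further 0.42 (adjusted p = 1.32e-05), when 4.22% of genes were called higher. Tap1 (-0.43), Tap2 (-0.65) and Nlrc5 (-0.75) were lower, when 9.38% of genes were called lower. With TMM, H2-K1 was thus the 1 member called higher at each step.

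Over the 9 conditions the IFN-LPS times ranked above all others for every member, and the 1 h samples were the lowest of the 4 times and overlapped no other condition. H2-K1 ran in the order 24, 12, 4 and 1 h, then IL-13, IL-4, BMDM control, RAW264.7 LPS and RAW264.7 control, and among these neighbours IL-13 and IL-4 alone overlapped. H2-D1 and B2m had the same order of times, but their 24, 12 and 4 h samples overlapped from one neighbour to the next. Tap1, Tapbp and Nlrc5 ran 4, 12, 24 and 1 h with no overlap between neighbours. RAW264.7 ranked below BMDM control for H2-K1, H2-D1, B2m, Tap2, Tapbp and H2-T23, with overlap for Tap2. Tap1 and Nlrc5 were the exceptions, with RAW264.7 above BMDM control in both, without overlap. Such separation was common: RAW264.7 control lay wholly above BMDM control in 39.1% of genes tested and wholly below in 41.1%. These orders and overlaps are of TMM levels and were not redone with library totals. With those, 57 of 72 group means of the members moved by at least their SD. From 1 to 4 h, H2-D1, B2m and H2-T23 then differed by 0.04 to 0.07 on the log2 scale. Tapbp then differed by -0.14 from 4 to 12 h and by -0.03 from 12 to 24 h.

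The 2 pairs of partners shifted in relative counts. H2-K1 had 1.13 to 1.23 counts for each count of H2-D1 in control and 4.52 to 4.69 at 24 h of IFN-LPS, with means of 2.37 at 1 h, 3.04 at 4 h and 3.68 at 12 h. These are ratios of counts within a library, so the scaling between libraries does not enter, and they were not tested. Tap1 had 1.89 ± 0.21 counts for each of Tap2 in control (SD, n = 3) and 8.53 ± 1.01 at 4 h, then 4.79 ± 0.33 at 12 h and 5.54 ± 0.47 at 24 h. In IL-4 and IL-13 the H2-K1 to H2-D1 ratio was 1.26 ± 0.09 and 1.33 ± 0.10, overlapping control. Sequence shared with other transcripts was small: 4.04% of the 101-base windows of H2-D1 and 7.07% of those of H2-T23 also occurred in another gene, and none of those of H2-K1, B2m, Tap1, Tap2 or Nlrc5.

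**Figure D3:**
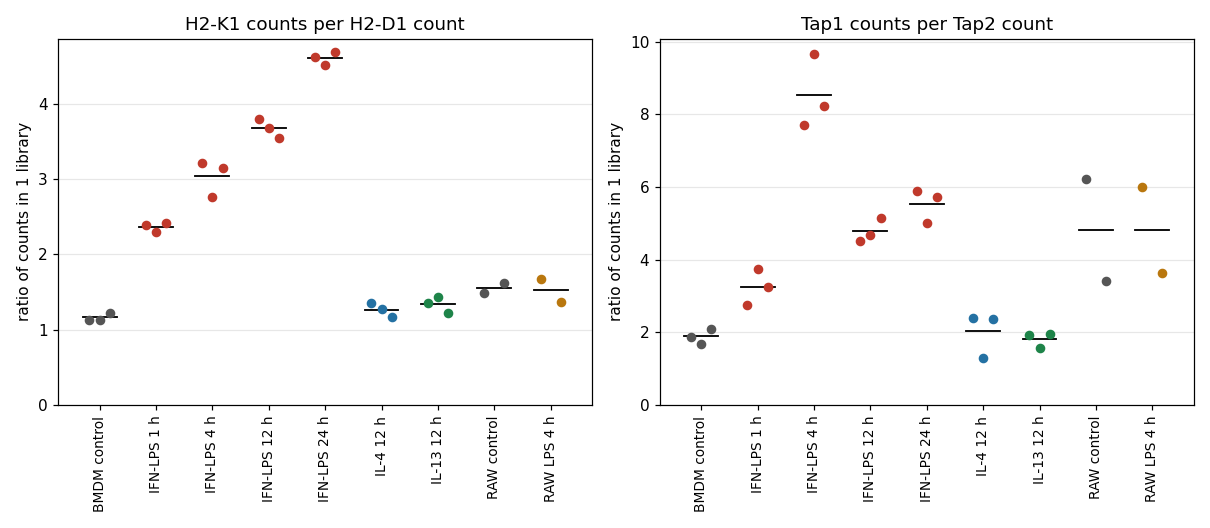
Ratio of H2-K1 to H2-D1 counts and of Tap1 to Tap2 counts in each sample (points; bars, group means) in the 9 conditions. The first ratio goes from 1.16 in BMDM control to 4.61 at 24 h of IFN-LPS, and the second is highest at 4 h, at 8.53.

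IL-4 and IL-13, cytokines of alternative activation, gave small changes. With IL-4, 4 members were called higher, when 3.78% of genes were: H2-T23 by 0.54 (adjusted p = 1.68e-05), Tapbp by 0.38 (adjusted p = 0.00479), B2m by 0.36 (adjusted p = 0.00277) and H2-K1 by 0.30 (adjusted p = 0.00661). H2-T23 went from 141 to 158 CPM in control to 199 to 234. Nlrc5 had 29.8 to 35.6 CPM with IL-4, all below the 37.5 to 38.7 CPM of control, and did not pass (log2 fold change -0.25, adjusted p = 0.387). Leaving out 1 sample left fewer calls: 1, 2 and 1 of 8 without control replicate 1, 2 or 3, and 2, 1 and 3 without IL-4 replicate 1, 2 or 3. H2-T23 was called in each of these fits. With IL-13 the same 4 were called, when 4.98% of genes were: H2-T23 by 0.59 (adjusted p = 1.98e-06), B2m by 0.54 (adjusted p = 2.97e-06), Tapbp by 0.37 (adjusted p = 0.00442) and H2-K1 by 0.34 (adjusted p = 0.00101). Tapbp lost its call without any of the 3 controls or the first IL-13 sample (adjusted p up to 0.0559), and H2-K1 without the second IL-13 sample (adjusted p = 0.0108). None passed the study's log2 cutoff of 0.7 with either cytokine, when 2.05% (IL-4) and 2.8% (IL-13) of genes did. These comparisons share the control samples.

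IL-13 and IL-4 were also set against each other. No member was called (edgeR), when 0.0754% of genes were called higher and 0.0% lower. By edgeR 1 member had an unadjusted p under 0.05, and by DESeq2 1, with 0 called. That member was Nlrc5, with 55.8, 46.6 and 36.4 CPM in IL-13 against 30.9, 35.6 and 29.8 in IL-4. Its log2 difference was 0.52 (95% interval 0.21 to 0.83, adjusted p = 0.322). Against both cytokines at the same 12 h, IFN-LPS was higher in all 8 members, by 1.26 to 4.53 over IL-4, when 21.1% of genes were called higher, and by 1.30 to 4.79 over IL-13, when 21.0% were.

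In RAW264.7 the same genes moved little. Before LPS, Tap1 at 41.0 and 33.3 CPM (log2 difference from BMDM control 0.71, adjusted p = 0.000241) and Nlrc5 at 55.9 and 51.1 CPM (0.49, adjusted p = 0.00336) were higher than in BMDM control, when 31.9% of genes were called higher. Those calls were 1 without BMDM control replicate 2 or 3 and 0 without RAW264.7 control replicate 1. H2-K1, H2-D1, B2m, Tapbp and H2-T23 were lower, by -0.77 to -2.36 on the log2 scale, when 33.7% of genes were called lower. H2-T23 was lowest against BMDM control, at 25.7 and 31.9 CPM. The H2 genes of BALB/c differ in sequence from the C57BL/6 reference, and the effect on RAW264.7 counts was not tested.

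After 4 h of LPS, H2-K1 in RAW264.7 was 480 and 466 CPM against 369 and 389 in its control. Called higher were 4 members, when 8.9% of genes were: Nlrc5 by 0.55 (adjusted p = 0.00215), Tapbp by 0.51 (adjusted p = 0.00354), H2-D1 by 0.36 (adjusted p = 0.00705) and H2-K1 by 0.32 (adjusted p = 0.0098). Those calls rested on each library and on the scaling: 1, 0, 3 and 0 were left without control replicate 1, control replicate 2, LPS replicate 1 and LPS replicate 2, with 1 sample then assumed to vary like the other groups, and 0 with library totals. Tap1 was 33.4 and 43.0 CPM against 41.0 and 33.3, overlapping, with a log2 fold change of 0.05 (95% interval -0.28 to 0.38, adjusted p = 0.903). B2m (0.13), Tap2 (0.12) and H2-T23 (0.21) did not pass either, and with library totals the values of Tap1, B2m and Tap2 were below 0.

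The 4 h responses of RAW264.7 to LPS and of BMDMs to IFN-γ plus LPS were compared with an interaction term. At 4 h all 8 members were lower in RAW264.7 with LPS than in BMDMs with IFN-LPS, by -2.12 to -5.49 on the log2 scale, when 35.0% of genes were called lower. The RAW264.7 response was smaller for all 8 members, by -0.93 for H2-D1 (adjusted p = 4.54e-08) to -5.40 for Tap1 (adjusted p = 1.97e-33) on the log2 scale, when 15.3% of genes were called lower. Nlrc5 followed Tap1 at -4.15 (adjusted p = 3.93e-30). RAW264.7 lacked IFN-γ and differs from BMDMs as a cell, so the agent and the cell type cannot be told apart, and BMDMs given LPS alone were not analysed here.

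**Figure D4:**
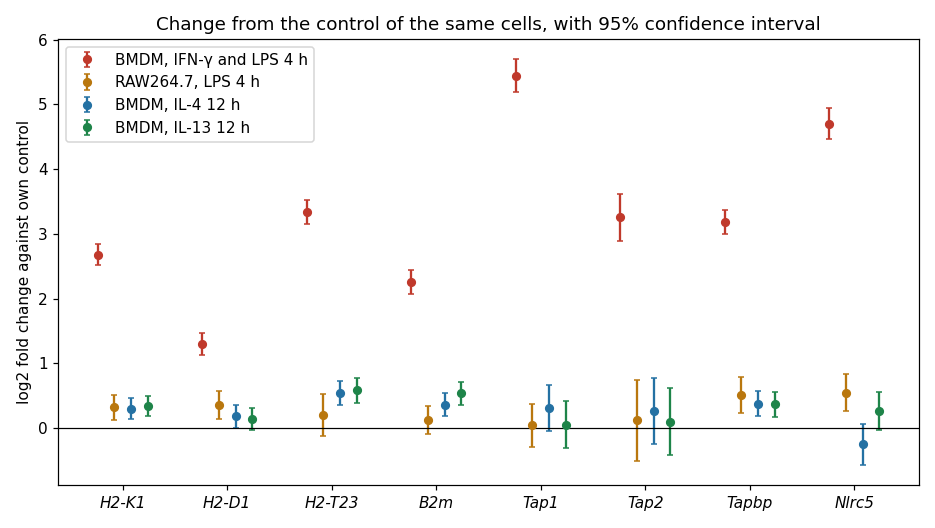
Log2 fold change of each member against its own control with its 95% interval in edgeR, for IFN-LPS at 4 h, IL-4 and IL-13 at 12 h, and RAW264.7 LPS at 4 h. The IFN-LPS values run from 1.30 for H2-D1 to 5.44 for Tap1, and the RAW264.7 interval of Tap1 (-0.28 to 0.38) spans 0.

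The other genes of the pathway were described by lists, to be read against the share of all genes tested that was called higher (14.6%, 25.3%, 23.2% and 22.3% at 1, 4, 12 and 24 h of IFN-LPS) or lower (10.3%, 23.2%, 21.6% and 20.5%). All 5 genes of the immunoproteasome list (Psmb8, Psmb9, Psmb10, Psme1, Psme2) were higher at every IFN-LPS time, with medians of 2.33, 3.02, 3.69 and 3.21 on the log2 scale. With IL-4, 1 of 5 was called higher (Psmb10, by 1.14), when 3.78% of genes were. With IL-13, 2 were (Psmb10 by 1.23 and Psme2 by 0.48), when 4.98% of genes were. In RAW264.7 LPS none of the 5 was, when 8.9% of genes were. Of 10 genes of peptide loading and trimming, 6 were higher and none lower at each IFN-LPS time (medians 1.05, 0.95, 0.53 and 0.62), among them Tapbpl, a tapasin relative, by 3.35 at 4 h, Hspa5, an ER chaperone, by 2.34 at 4 h, and the trimming enzyme Erap1 by 1.41 at 24 h. Thop1, Tpp2 and Npepps were among the 4 that did not pass at any of these times.

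Of 15 regulators, 6, 10, 8 and 8 were higher and 3, 2, 3 and 3 lower at 1, 4, 12 and 24 h, where 14.6%, 25.3%, 23.2% and 22.3% of all genes were higher. Irf1, an interferon-induced activator of class I genes, rose from 44.1 CPM to 1577 at 1 h and 2252 at 4 h and was at 311 at 24 h, and its log2 fold change was 5.67 at 4 h. Rfxap, a subunit of the RFX complex on class I and class II promoters, was lower at all 4 times, by -1.04 to -1.29. Its samples held 18 to 26 counts in control and 4 to 7 at 4 h. Mean levels of Rfx5, also listed, were 10.04 CPM in control, then 33.07, 56.15, 40.46 and 30.12 at the successive times. Those of Rfxank, listed as well, were 9.86 CPM in control, then 5.56, 4.78, 10.12 and 11.05. Rfx5 and Rfxank each rested on 17 to 21 counts in the control samples. In RAW264.7 LPS, 5 of 15 were higher, when 8.9% of genes were. Of these Nfkb1 (2.32), encoding an NF-kB precursor, moved most.

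**Figure D5:**
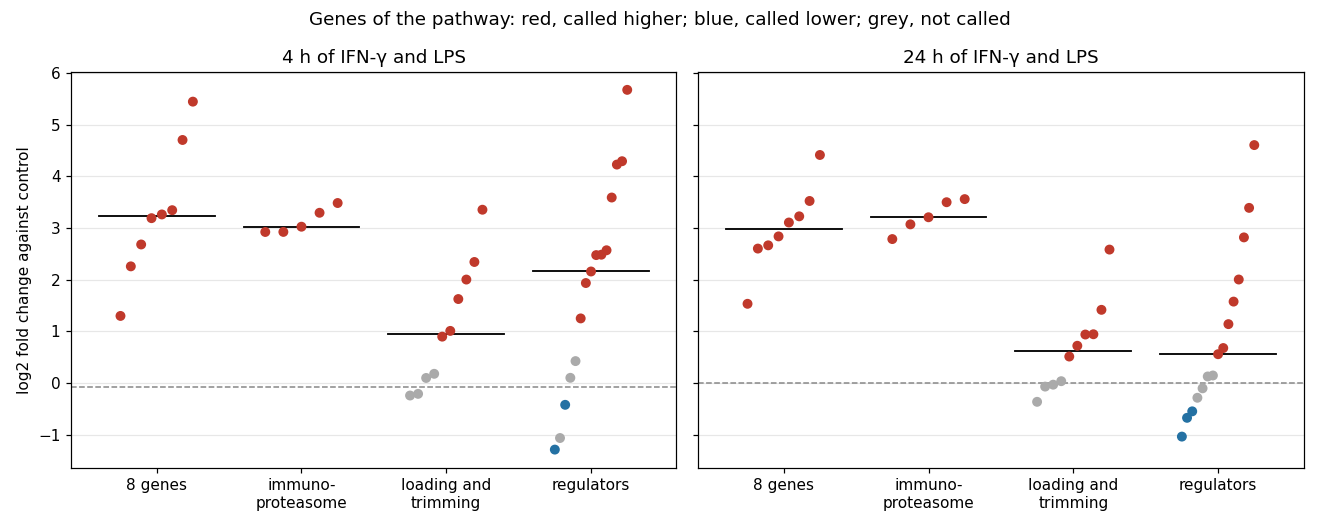
Log2 fold change against control of each tested gene at 4 h and 24 h of IFN-LPS, for the 8 members, the immunoproteasome, loading and trimming, and the regulators (points, genes; red, called higher; blue, called lower; grey, not called; black bar, list median; dashed line, median of all genes tested). The medians at 4 h are 3.22 for the 8 members, 3.02 for the immunoproteasome, 0.95 for loading and trimming and 2.16 for the regulators.

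Of 19 other class I heavy chain genes, 11 were tested, and 5, 6, 6 and 7 were higher and 0, 0, 1 and 1 lower at 1, 4, 12 and 24 h, where 14.6%, 25.3%, 23.2% and 22.3% of all genes were higher. H2-Q4, named after its values were seen, had 10.2 CPM in control and 125, 267, 503 and 528 at the successive times. H2-M2 had 3 counts in all in the control samples (0.537 CPM) and 430 CPM at 24 h, and H2-Q5 1 count (0.179 CPM) and 55.9 CPM. Such genes passed the filter on low counts only through groups where they were high, so being tested and being called higher were not independent. Any other heavy chain or class II gene near 0 in control shares this limit. Mr1, which presents vitamin metabolites, fell from 21.7 to 9.22 CPM at 24 h. H2-Q6, H2-Q7, H2-Q8, H2-Q9, H2-T3 and H2-T9 were listed at 0 in every sample. Reads matching several places were left out of these counts, and what that took from the multigene H2-Q family was not tested. Of 10 class II presentation genes, 7 were tested and all 7 were higher at every IFN-LPS time, with a median of 6.14 already at the labelled 1 h. Cd74, the class II invariant chain, had 46.3 CPM in control and 3710 at 1 h.

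Across the 7 BMDM conditions, the genes whose log2 profile of group means was most like the mean of the members were Ifi205, Psme2, Gbp6, AW112010 and Isg15 (Pearson r 0.995 to 0.996, over 7 conditions that share the same libraries, 7027 candidate genes). Nearest to H2-K1 were Sod2 and Sec61g, to H2-D1 Sod2 and Psmb3, and to B2m Tcp1 and Cdc42ep2. Tap1 was most like Gch1 and Mfsd7a, Tap2 like AW112010 and Tgtp2, and Tapbp like Slc7a11 and Bcl2a1d. Nlrc5 was most like Mx2 and Nfkb2, and H2-T23 like the class II genes H2-Ab1 and Cd74. Among the members themselves r ran from 0.916 for H2-K1 with Nlrc5 to 0.998 for H2-K1 with H2-D1. These are descriptions, with no test.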

How the data were processed

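The authors deposited gene counts for each library, made from paired reads of 101 bases on mm10 (submitters' notes: CASAVA 1.8.2, Trimmomatic 0.33, STAR 2.5.1). STAR leaves out reads that map to several places or overlap several genes. The annotation release is not given in the sources used here. The labels say polyA RNA, and the protocol describes ribosomal RNA removal with a strand-specific kit. Sense counts were used. Rn45s was left out of library totals and tests.

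Counts were scaled by TMM and fitted in 1 edgeR 4.0.16 quasi-likelihood model (robust, R 4.3.3) over all 25 samples and 9 groups, with 16 residual degrees of freedom and 10612 genes left by filterByExpr. Adjusted p-values (Benjamini-Hochberg) are over all genes tested, and a call needed one of at most 0.01. The model was tested on simulated counts, with the spread between samples set alike for all genes. There, log2 changes of 1 were missed more often in genes of few counts, so that a gene not called may have changed by that much. The first criterion for recovery, over all genes, was not met and was then narrowed to larger changes or genes of more counts. The study's log2 cutoffs gave a second count. Alternatives were RLE factors, library totals, no filter, unstranded counts, Rn45s kept, a replicate block, only the groups compared, DESeq2 1.42.0, and leaving out each sample. Python 3.11.15 and Biopython 1.88 computed levels, motifs and the promoter alignment. Gene positions came from GENCODE, and promoter sequences from RefSeq (GRCm38.p6), matched by symbol for 6 of 8 members.

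The members and gene lists were chosen with earlier results of these data known. Genes were named as members, by list, or by likeness over the 7 BMDM conditions (the 5 nearest to the mean of the members and the 2 nearest to each, among genes of at least 20 CPM in 1 condition); of a list, those with the 2 largest or 2 smallest changes at 4 or 24 h of IFN-LPS, regulators and immunoproteasome genes. The p-values measure the spread between the samples of a group, which the study's methods describe as independent RNA samples. Counting error is larger for genes of few counts. The values of 1 listed regulator are not reported here.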

Additional observations from a re-analysis of the deposited data

Results flagged for a closer look

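The 4 h response of RAW264.7 to LPS was smaller than that of BMDMs to IFN-γ plus LPS for each member in an interaction term (edgeR), by these log2 values, RAW264.7 minus BMDM: H2-K1 -2.36, H2-D1 -0.93, B2m -2.13, Tap1 -5.40, Tap2 -3.14, Tapbp -2.68, Nlrc5 -4.15 and H2-T23 -3.13. With library totals they ran from -0.49 to -4.96. The agent and the cell type cannot be told apart.

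Antisense counts, which enter no comparison, were above those of the control samples in some IFN-LPS groups. Sense counts rose as well, for H2-K1 from 1167 to 1219 in the control samples to 14533 to 18017 at 24 h. The antisense share was not compared between groups. At 12 h the antisense share of Rn45s was also the highest (0.0827% to 0.122%). The highest H2-K1 sample held 21 counts at 1 h and 21 at 4 h, and for the later times 46 (12 h) and 18 (24 h), against 3 to 6 in the control samples. For B2m it held 13 at 1 h, 13 at 4 h and 29 at 12 h, against 1 to 4. For Tap1 it held 11 at 12 h, against 0, and for H2-T23 6, 9 and 13 at 1, 4 and 12 h, against 0 to 1. Antisense counts were 0.133% to 0.595% of a member's counts on both strands. No group held 4 or more samples, so a single far sample could not be looked for.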

How the results depend on the processing

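Of 1024 member values in 8 alternatives, 1003 kept direction and side of the threshold, and 7 changed sign, none of them called in either fit. With library totals these were H2-T23 from 4 to 12 h (0.10), Tapbp for IL-13 against IL-4 (0.020), and B2m (-0.013), Tap1 (-0.092) and Tap2 (-0.017) in RAW264.7 LPS. H2-T23 from 12 to 24 h, at 0.0074 in the fit reported, was -9.44e-05 with RLE factors and -0.00039 with DESeq2. With library totals, member calls from 1 to 4 h went from 8 to 5 higher, from 4 to 12 h from 1 to 4 higher, and in RAW264.7 LPS from 4 to 0. Over all genes library totals gave 1998 lower at 1 h (1090 with TMM), 1518 higher and 4991 lower at 4 h (2685 and 2464), 1582 and 3707 at 12 h (2466 and 2296), 1246 and 3452 from 1 to 4 h (2023 and 1828), 2499 higher from 4 to 12 h (1613), 810 higher from 12 to 24 h (448), 3548 lower for IFN-LPS against IL-4 (2109), 1469 and 3761 against IL-13 (2233 and 2119), 5071 and 2460 for RAW264.7 LPS against BMDM IFN-LPS (3314 and 3715), and 2232 and 954 in the interaction (1035 and 1619). For IL-13 against IL-4, genes lower were 0 in the fit reported, 1 with no filter and 2 with only the groups compared, which also gave 441 lower with IL-4 (262) and 1418 higher in RAW264.7 LPS (944). Without the filter H2-K1 in RAW264.7 lost its call (adjusted p = 0.0184), and with only the groups compared Tap1 from 12 to 24 h (adjusted p = 0.012) and Tapbp with IL-13 (adjusted p = 0.0161) did. DESeq2 changed no member call and gave 293 higher from 12 to 24 h (448), 3 higher for IL-13 against IL-4 (8) and 548 lower in RAW264.7 LPS (1020). The causes were not tested.

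Leaving out 1 sample gave, for members called higher, 1 to 2 from 4 to 12 h, 1 to 3 with IL-4, 3 to 4 with IL-13, 0 to 3 in RAW264.7 LPS and 0 to 2 in RAW264.7 control against BMDM control. Over all genes it gave 158 to 196 lower with IL-4 (262), 231 to 306 lower with IL-13 (354), 2 to 7 higher and 0 to 1 lower for IL-13 against IL-4 (8 and 0), and 577 to 671 lower in RAW264.7 LPS (1020). Values that were not called spanned 0 when 1 sample was left out for H2-T23 from 12 to 24 h (-0.0094 to 0.035), for Tap1 (-0.13 to 0.17) and Tap2 (-0.029 to 0.21) with IL-13, for Tap2 (-0.29 to 0.027), Tapbp (-0.087 to 0.053) and H2-T23 (-0.011 to 0.11) in IL-13 against IL-4, and for Tap1 (-0.15 to 0.21) and Tap2 (-0.54 to 0.53) in RAW264.7 LPS.

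Labels number the replicates, but same-numbered samples did not deviate together (mean correlation 0.0016 over 93 pairs, -0.0008 over 184 others; 8 of 25 samples correlated best with their own number). A fit with the replicate number as a block changed no member call and gave 1 gene lower for IL-13 against IL-4 (0 without the block). Depth limited Tap2, with 19 to 26 counts in each control sample.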
